A study of Mus musculus with 21 samples.

Results

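Methionine, one-carbon and choline metabolism was followed through 37 genes in mouse liver, with and without a deletion of Mboat7 in hepatocytes. The genes were picked by name as known enzymes and carriers of these pathways, and all 37 were among the 55418 gene symbols measured and among the 15677 genes with enough reads to be tested. They comprised 13 genes of the methionine cycle and its methyl users, 2 of transsulfuration, 9 of the folate cycle and serine synthesis, 4 of choline oxidation, and 9 of choline uptake and phospholipid synthesis.

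Bulk RNA-seq was done on whole liver, with 1 library from each of 21 separately numbered animals. The groups were hepatocyte Mboat7 deletion (KO) on a high-fat, low-methionine, choline-deficient diet (HFCDD; 4 livers), wild type (WT) on HFCDD (4 livers), KO on chow (7 livers) and WT on chow (6 livers). Mice on HFCDD started it at 6 to 8 weeks of age and ate it for 6 weeks. Mice on chow were sampled at 10 weeks of age. The diets thus differed in age and in animal number range as well, and these cannot be told apart from diet. The Cre driver, strain and sex were not given in the sources used here. Mboat7 encodes an acyltransferase that puts arachidonate into phosphatidylinositol.

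The liver makes most of the body's S-adenosylmethionine, the methyl donor of the cell. The donor is formed from methionine, spent by methyltransferases, and returned through homocysteine either to methionine, with a methyl group from folate or betaine, or to cysteine. Much of the donor is spent on turning phosphatidylethanolamine into phosphatidylcholine, which the liver also builds from dietary choline and needs for lipoprotein export; diets short of methionine and choline are used to produce fatty liver in rodents.

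Total counts per library ran from 17502231 to 25822972. Mboat7 averaged 18.9 ± 2.24 CPM (counts scaled to a common library total) in KO HFCDD livers and 36.3 ± 1.47 in WT HFCDD livers (SD, n = 4 each), and 21.3 ± 1.77 in KO chow livers (n = 7) and 36.2 ± 2.72 in WT chow livers (n = 6). Every KO library lay below every WT library of its diet, with log2 fold changes of -0.94 ± 0.09 on HFCDD and -0.76 ± 0.07 on chow (SE; edgeR quasi-likelihood test, adjusted p = 7.5e-06 and 3.9e-06). Summed CPM of 14 hepatocyte markers ran from 106980 to 113580 in KO HFCDD, 107750 to 124050 in WT HFCDD, 110860 to 139960 in KO chow and 108470 to 159660 in WT chow livers, with no marker at 0 in any group. Summed CPM of 12 gallbladder and gut mucosa markers reached 126 in KO chow livers (median 0.357) and 47.6 in WT chow livers (median 0.772), and that of 10 striated muscle markers reached 2025 in 1 KO chow library. KO chow replicates 1 and 7 and WT chow replicates 3 and 5, which earlier results of these data set apart, were therefore also left out, and calls that end or appear without them are given beside the result. Replicate numbers only name the libraries.

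The members spanned the range from abundant liver enzymes to nearly silent genes. Per kilobase of exon, Mat1a, the liver form of methionine adenosyltransferase, had the highest mean level in WT chow livers at 2539 ± 894 CPM per kb (SD, n = 6), and Gnmt, which methylates glycine and disposes of surplus S-adenosylmethionine, was next at 1157 ± 294 CPM per kb. Cth, Ahcy and Bhmt followed at 396 ± 133, 323 ± 68.1 and 279 ± 139 CPM per kb, and these 3 differed from each other by less than the sum of their SDs. At the low end stood 5 genes of the folate cycle and serine synthesis, from Mthfd1l at 0.700 ± 0.164 through Mthfd2, Mthfd2l and Psat1 (0.224 ± 0.0834) to Phgdh at 0.0550 ± 0.0295 CPM per kb. Mthfd2 (0.380 ± 0.0728) and its neighbour Mthfd2l (0.290 ± 0.0755) did not differ by more than the sum of their SDs.

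**Figure D1:**
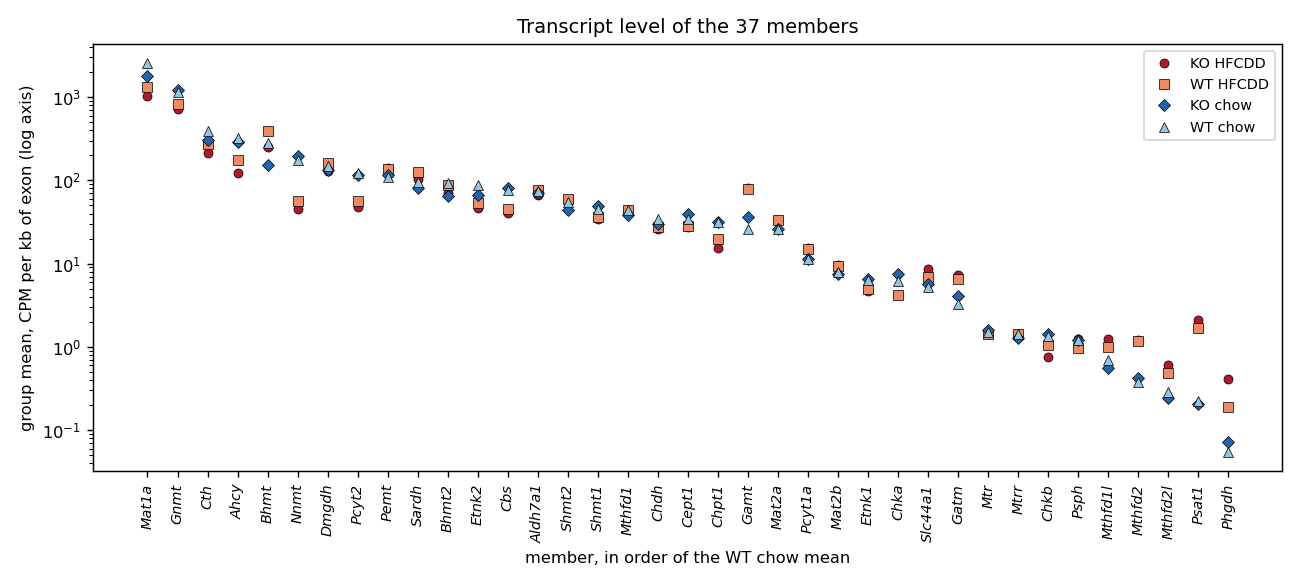
Mean level of each of the 37 genes in CPM per kb of exon (log axis) in the 4 groups, ordered by the WT chow mean. Mat1a leads at 2539 CPM per kb and Phgdh is last at 0.0550 in WT chow livers, and the HFCDD points of Psat1 lie far above its chow points.

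The upstream sequences of 3 low genes that were higher on HFCDD in both genotypes are shown first. In other settings these genes are known to be switched on together when amino acids are short, through the transcription factor ATF4. ATF4 activity was not tested here, and a list of 22 known ATF4 targets, given further below, was called in both directions. Each sequence is the stretch of 250 bases before a start of a RefSeq transcript (GRCm38.p6), read 5′ to 3′ on the gene's own strand. The letters CCAAT, or ATTGG for a match on the opposite strand, are in capitals.
Psat1 (chr19:15925060-15925309, minus strand): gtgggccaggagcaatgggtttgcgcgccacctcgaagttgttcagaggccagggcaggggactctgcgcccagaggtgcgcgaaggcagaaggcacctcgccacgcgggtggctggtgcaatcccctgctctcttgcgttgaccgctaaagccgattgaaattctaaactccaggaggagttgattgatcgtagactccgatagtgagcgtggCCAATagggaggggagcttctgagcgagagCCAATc
Phgdh (chr3:98339970-98340219, minus strand): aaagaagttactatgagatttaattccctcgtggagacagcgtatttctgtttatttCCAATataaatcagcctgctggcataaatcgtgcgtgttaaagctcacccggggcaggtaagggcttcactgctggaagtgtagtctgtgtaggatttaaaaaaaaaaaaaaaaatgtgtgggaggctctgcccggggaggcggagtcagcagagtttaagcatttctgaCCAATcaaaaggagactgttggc
Mthfd2 (chr6:83317605-83317854, minus strand): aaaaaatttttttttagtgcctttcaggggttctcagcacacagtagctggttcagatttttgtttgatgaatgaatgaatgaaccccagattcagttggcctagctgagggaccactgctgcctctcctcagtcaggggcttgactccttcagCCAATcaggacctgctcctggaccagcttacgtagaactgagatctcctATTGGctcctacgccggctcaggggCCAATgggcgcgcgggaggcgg
The Psat1 stretch held 2 CCAAT matches, that of Phgdh 2 and that of Mthfd2 3. With the 50 bases after the start, the Psat1 window shown held 3, while the counts of Phgdh and Mthfd2 stayed at 2 and 3. Psat1 has 2 windows, and CCAAT was not found in its other window. Among 32851 RefSeq windows of 300 bases (250 before the start and 50 after), 12289 (37.4%) held CCAAT on either strand and 1107 (3.37%) held at least 3 matches. CCAAT was found in 21 of 42 windows of the members, in 20 of the 32 members with a window. The sequence TGATGCAA, 1 form of the core of the response element for C/EBP and ATF factors, was in 294 of all windows (0.895%) and in 0 of the 42. Only these exact letters were searched. At 0.895% of windows, 0 of 42 does not set the members apart from other genes. The CCAAT search was added after the sequences had been seen; it describes letters only.

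HFCDD went with broad changes among the members in both genotypes. In KO livers 14 members rose and 13 fell on HFCDD relative to chow, at a Benjamini-Hochberg adjusted p under 0.05 in edgeR's quasi-likelihood test over all genes. Those 27 are 73% of the members, beside 69.7% of all tested genes (33.7% higher and 36% lower). In WT livers 13 rose and 13 fell, which is 70.3% of the members, beside 62.5% of all tested genes (29% higher and 33.6% lower). The share changed was thus near that of all genes. All HFCDD libraries lay outside the range of the chow libraries for 22 members in KO livers, 10 above and 12 below, beside 53% of all tested genes (25.7% above and 27.3% below). In WT livers they did so for 15 members, 9 above and 6 below, beside 47.2% of all tested genes (23.1% above and 24.1% below). The same direction was called in both genotypes for 24 members, of which 12 were higher and 12 lower; 3 were called in KO only, 2 in WT only, 8 in neither and 0 in opposite directions. The median log2 fold change of the 37 was 0.03 in KO livers, where that of all tested genes was -0.02, and 0.01 in WT livers, where that of all tested genes was -0.05. HFCDD livers also had more macrophage transcript, with 14 of 16 markers called higher in each genotype. Their summed CPM was 2824 to 3458 in KO HFCDD against 552 to 738 in KO chow, and 2876 to 3393 in WT HFCDD against 387 to 1057 in WT chow livers, with no marker at 0. Stellate cell and fibroblast markers were called higher for 11 of 13 in KO and 10 of 13 in WT livers, with summed CPM of 1629 to 1877 in KO HFCDD against 234 to 567 in KO chow, and 1255 to 1539.5 in WT HFCDD against 227 to 326.8 in WT chow livers, and no marker at 0. Of the 14 hepatocyte markers, 9 were called lower in KO and 7 in WT livers and 0 higher, with median log2 changes of -0.44 and -0.37. At an unadjusted p under 0.05, 9 and 7 of the 14 passed. In bulk liver, fewer cells of a type and less RNA per cell cannot be told apart, and the part of cell makeup in the diet results was not tested.

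**Figure D2:**
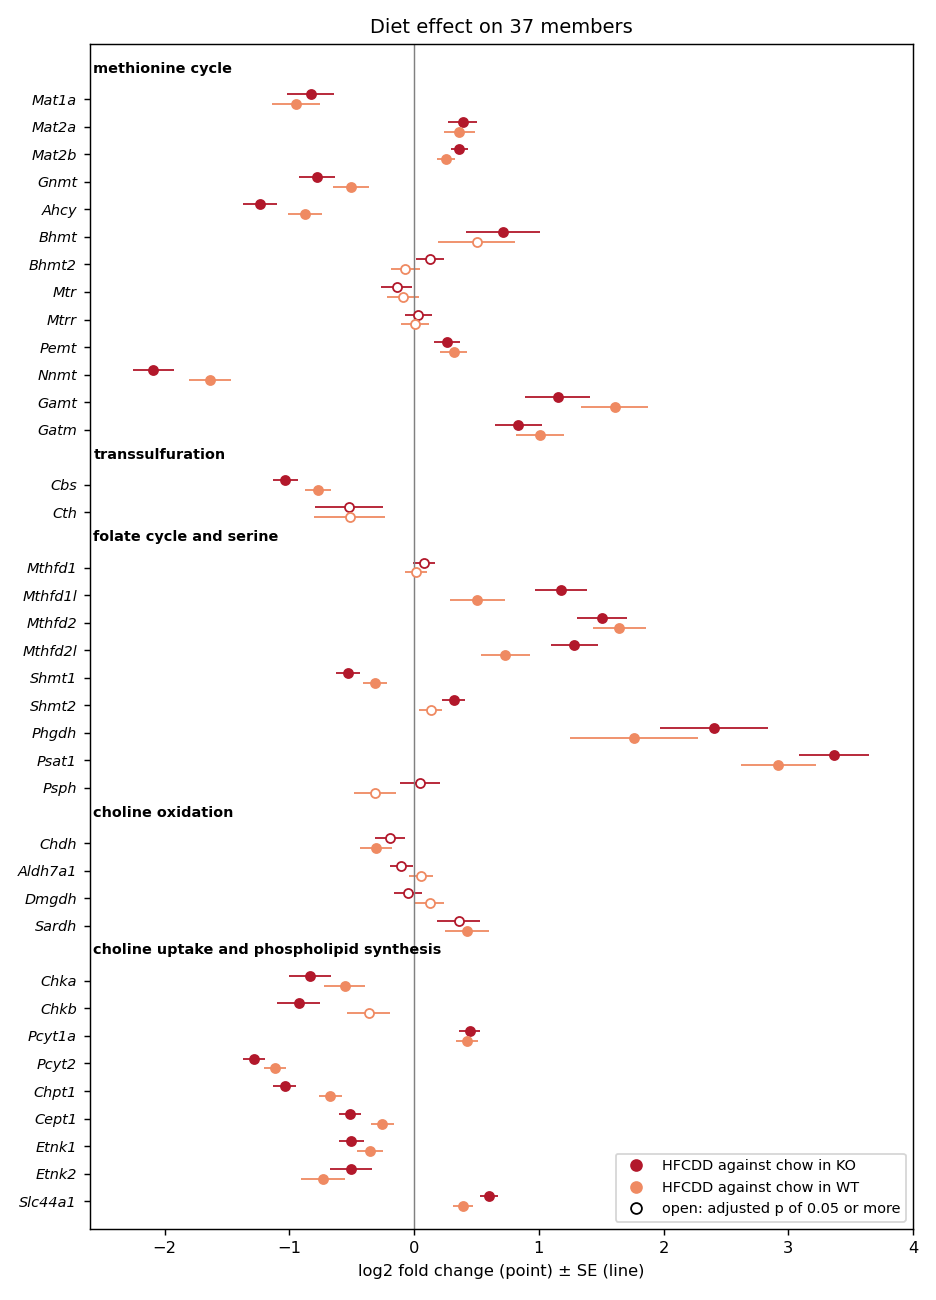
Log2 fold change (point) and SE (line) of HFCDD against chow in KO livers (dark) and WT livers (light) for the 37 genes by role; open points have an adjusted p of 0.05 or more. Psat1 lies farthest right, at 3.37 in KO and 2.92 in WT livers, followed by Phgdh and Mthfd2, and Nnmt lies farthest left at -2.09 in KO livers.

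Among the folate cycle and serine genes, 6 of 9 rose and 1 fell in KO livers, beside 33.7% of all tested genes higher and 36% lower. In WT livers 5 rose and 1 fell, beside 29% higher and 33.6% lower. Psat1, Phgdh and Mthfd2 had the 3 largest rises of the 37 members in either genotype. Psat1, the aminotransferase of serine synthesis, had 8.38, 10.1, 8.07 and 9.51 CPM in KO HFCDD livers, against a lowest, median and highest value of 0.348, 0.730 and 1.55 CPM in KO chow livers. In WT HFCDD livers it had 7.99, 8.36, 8.47 and 4.05 CPM, against 0.639, 0.881 and 1.57 CPM (lowest, median, highest) in WT chow livers. All HFCDD libraries were above all chow libraries, although WT HFCDD replicate 4 stood below its group. The fold was 10.3 in KO (log2 3.37 ± 0.28, adjusted p = 3.7e-10) and 7.57 in WT (2.92 ± 0.30, 1.3e-08; SE, edgeR). Phgdh, the first enzyme of that branch, also rose (2.40 ± 0.43 in KO, adjusted p = 3.4e-05; 1.76 ± 0.51 in WT, 0.0047; edgeR), but on very few reads. It had 40, 33, 15 and 19 counts in KO HFCDD libraries, against 1 to 12 in KO chow libraries. In WT livers it had 12, 12, 9 and 14 counts on HFCDD, against 1 to 4 on chow. Psph, which completes serine synthesis, did not pass in either genotype (0.05 ± 0.16 in KO and -0.31 ± 0.17 in WT); its exons lie over Cct6a on the other strand.

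Mthfd2, the mitochondrial methylenetetrahydrofolate dehydrogenase, had 5.56, 3.16, 3.66 and 4.38 CPM in KO HFCDD livers, against 1.04, 1.35 and 1.96 CPM (lowest, median, highest) in KO chow livers. In WT HFCDD livers it had 4.66, 4.65, 4.40 and 2.92 CPM, against 1.06, 1.28 and 1.71 CPM in WT chow livers. The libraries of the diets did not overlap in either genotype, and the log2 changes were 1.50 ± 0.20 in KO and 1.65 ± 0.21 in WT livers (SE; edgeR adjusted p = 5.6e-07 and 4.5e-07). Mthfd2l, its close relative, rose by 1.28 ± 0.19 in KO and 0.73 ± 0.20 in WT livers (adjusted p = 2e-06 and 0.0024). Mthfd1l, which makes formate in mitochondria, rose by 1.18 ± 0.21 in KO and 0.51 ± 0.22 in WT livers (3e-05 and 0.047). The WT call of Mthfd1l was lost without any 1 of WT HFCDD replicates 1, 2 and 3 or WT chow replicates 1, 5 and 6 (adjusted p 0.058 to 0.16), with the filter of 1 CPM (0.055) and without KO chow replicates 1 and 7 and WT chow replicates 3 and 5 (0.06). The serine hydroxymethyltransferases moved apart. Cytosolic Shmt1 fell, at -0.53 ± 0.10 in KO and -0.31 ± 0.10 in WT livers (3.3e-05 and 0.0073; the WT call was lost without WT chow replicate 2, at 0.062). Mitochondrial Shmt2 rose in KO livers by 0.32 ± 0.09 (0.0034). In WT livers Shmt2 was at 0.13 ± 0.09 (0.22), and passed with upper-quartile scaling (0.048) or without WT chow replicate 6 (0.043). Mthfd1, the cytosolic enzyme that interconverts folates, was at 0.08 ± 0.09 in KO and 0.01 ± 0.09 in WT livers, not called.

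In the methionine cycle and its methyl users, 6 of 13 members rose and 4 fell in KO livers, beside 33.7% of all tested genes higher and 36% lower. In WT livers 5 rose and 4 fell, beside 29% higher and 33.6% lower. Mat1a, Gnmt, Ahcy and Nnmt were the 4 that fell in both genotypes, while Mat2a, Mat2b, Pemt, Gamt and Gatm rose in both. Mat1a had 3581, 3574, 3979.6 and 3017 CPM in KO HFCDD livers, against 5674, 6259 and 7065 CPM (lowest, median, highest) in KO chow livers. In WT livers Mat1a had 6304, 4354, 3907 and 3727 CPM on HFCDD, against 5928, 7592 and 14304 CPM on chow. The KO diets did not overlap and the WT diets did, through WT HFCDD replicate 1. The changes were -0.83 ± 0.18 and -0.94 ± 0.19 (SE; edgeR adjusted p = 0.00041 and 0.00018). Mat2a, the form found outside the adult liver and in dividing cells, rose by 0.39 ± 0.12 in KO and 0.36 ± 0.12 in WT livers (0.0061 and 0.014; the WT call was lost without WT HFCDD replicate 3 at 0.054). Its regulatory partner Mat2b rose by 0.36 ± 0.07 and 0.26 ± 0.07 (7.5e-05 and 0.0035). As a description without a test, Mat2a stood at 3.38 ± 0.839% of Mat1a per kb in KO HFCDD and 2.64 ± 0.656% in WT HFCDD livers, against 1.43 ± 0.153% in KO chow and 1.08 ± 0.273% in WT chow livers (SD). Markers of dividing cells were also higher on HFCDD, 12 of 12 being called in KO and 11 of 12 in WT livers. Their summed CPM was 85.9 to 240.0 in KO HFCDD against 14.2 to 25.0 in KO chow, and 99.2 to 194 in WT HFCDD against 15.2 to 19.7 in WT chow livers, with no marker at 0. Their part in the Mat2a result was not tested.

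Ahcy, which splits S-adenosylhomocysteine, had 360.4, 325.9, 416 and 286 CPM in KO HFCDD livers, against 681, 806 and 930.3 CPM (lowest, median, highest) in KO chow livers. In WT HFCDD livers it had 584, 459, 488 and 448 CPM, against 712, 878 and 1267 CPM in WT chow livers. Every HFCDD library was below every chow library of its genotype, with changes of -1.24 ± 0.14 and -0.87 ± 0.14 (SE; edgeR adjusted p = 3.1e-08 and 8.1e-06). Gnmt fell by 0.78 and 0.51 (-0.78 ± 0.14 in KO and -0.51 ± 0.15 in WT; 5e-05 and 0.0048). Nnmt, which methylates nicotinamide, had the largest fall of the 37 in both genotypes. It had 74.8, 60.8, 95.3 and 56.0 CPM in KO HFCDD livers, against 229, 300.02 and 342 CPM in KO chow livers. In WT HFCDD livers it had 109.6, 76.5, 80.3 and 92.2 CPM, against 208, 278 and 350.5 CPM in WT chow livers. No library of one diet reached the other, and the changes were -2.09 ± 0.17 and -1.64 ± 0.16 (2.5e-10 and 1.8e-08). Some methyl users rose instead. Pemt, which makes phosphatidylcholine by methylation, rose by 0.27 ± 0.10 in KO and 0.32 ± 0.11 in WT livers (0.026 and 0.012). The KO call of Pemt was lost without any 1 of KO HFCDD replicates 1, 2 and 3 or KO chow replicate 1 (0.05 to 0.09), and without KO chow replicates 1 and 7 together (0.11). Its WT call was lost without those 2 and WT chow replicates 3 and 5 (0.055). Gamt, which makes creatine by methylation, had 117, 100.4, 130.3 and 121 CPM in KO HFCDD livers, against 39.4, 50.2 and 78.5 CPM (lowest, median, highest) in KO chow livers. It rose by 1.15 ± 0.26 in KO and 1.61 ± 0.27 in WT livers (0.00064 and 4.5e-05). Gatm, the enzyme before it, rose by 0.84 ± 0.19 and 1.01 ± 0.20 (0.00042 and 0.00012). Of the genes that return homocysteine to methionine, Bhmt, which uses betaine, rose in KO livers by 0.71 ± 0.30 (0.041) and was at 0.50 ± 0.31 in WT livers (0.16; 0.044 in limma-voom). Bhmt had 1529.8, 1239, 1522 and 1459 CPM in KO HFCDD livers, against 642, 711 and 1356 CPM (lowest, median, highest) in KO chow livers, and the groups overlapped. That call was lost without any 1 of KO HFCDD replicates 1, 3 and 4 or KO chow replicates 1, 3, 4 and 5 (0.059 to 0.08), without KO chow replicates 1 and 7 together (0.057) and with no low-count filter (0.063). Its relative Bhmt2 was at 0.13 ± 0.11 in KO and -0.07 ± 0.12 in WT livers, not called. Methionine synthase Mtr and its reductase Mtrr were not called in either genotype, with log2 changes between -0.14 and 0.04.

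In transsulfuration, Cbs, which joins homocysteine to serine, had 297, 271, 343 and 289 CPM in KO HFCDD livers, against 562, 595 and 704 CPM (lowest, median, highest) in KO chow livers. In WT HFCDD livers it had 325, 311, 339 and 364 CPM, against 470.0, 588 and 654 CPM in WT chow livers. The diets did not overlap, and Cbs fell by 1.03 and 0.77 (-1.03 ± 0.10 and -0.77 ± 0.10, SE; edgeR adjusted p = 5.4e-09 and 9.3e-07). Cth, which releases cysteine, varied widely within groups and did not pass (-0.52 ± 0.28 and -0.52 ± 0.28; 0.099 and 0.12). It had 793, 644, 517 and 447 CPM in KO HFCDD and 604, 543, 935 and 1007 CPM in WT HFCDD livers, and from 535 to 1314 CPM in KO chow and from 577 to 1579 CPM in WT chow livers.

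In choline uptake and phospholipid synthesis, 2 of 9 members rose and 7 fell in KO livers, beside 33.7% of all tested genes higher and 36% lower. In WT livers 2 rose and 6 fell, beside 29% higher and 33.6% lower. Pcyt2, which activates ethanolamine, had 223, 198, 214 and 188 CPM in KO HFCDD livers, against 433, 502 and 576 CPM (lowest, median, highest) in KO chow livers. In WT HFCDD livers Pcyt2 had 245, 245, 258 and 226 CPM, against 459, 533 and 574 CPM in WT chow livers. The ranges did not meet, and the changes were -1.28 ± 0.09 and -1.11 ± 0.09 (SE; edgeR adjusted p = 6.7e-12 and 1.7e-10). Chpt1, which completes phosphatidylcholine from diacylglycerol, fell by 1.04 in KO (-1.04 ± 0.09, 6.1e-10) and by 0.67 in WT livers (-0.67 ± 0.09, 9.9e-07). Its relative Cept1 changed by -0.51 ± 0.09 and -0.26 ± 0.09 (2.2e-05 and 0.017). The WT call of Cept1 was lost with upper-quartile scaling (0.098), with no low-count filter (0.092) and without any 1 of KO chow replicates 2, 3 and 6, WT HFCDD replicates 1 and 2 or WT chow replicates 2, 4 and 5 (0.051 to 0.097). The kinases that phosphorylate choline or ethanolamine were lower too. Chka was at -0.83 ± 0.16 and -0.56 ± 0.17 (0.00013 and 0.0063), and Etnk1 at -0.50 ± 0.10 and -0.35 ± 0.10 (0.00014 and 0.005). Etnk2 was at -0.50 ± 0.17 and -0.73 ± 0.18 (0.012 and 0.0011; the KO call was lost without KO HFCDD replicate 3 or 4, at 0.06 and 0.053, and with no low-count filter, at 0.056). The WT call of Etnk1 was lost without KO chow replicates 1 and 7 and WT chow replicates 3 and 5 (0.065). Chkb was at -0.93 ± 0.17 in KO (5.1e-05) and -0.36 ± 0.17 in WT livers (0.07, not called; 0.049 in limma-voom and 0.03 without KO chow replicates 1 and 7 and WT chow replicates 3 and 5). However, 1552 bases of its exons are shared with Gm44502 on the same strand, so its counts are uncertain. Against these, Pcyt1a, the regulated step of phosphatidylcholine synthesis from choline, rose by 0.45 ± 0.09 and 0.42 ± 0.09 (6.9e-05 and 0.00023), and the choline carrier Slc44a1 rose by 0.60 ± 0.07 and 0.39 ± 0.08 (1.5e-07 and 0.00011).

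**Figure D3:**
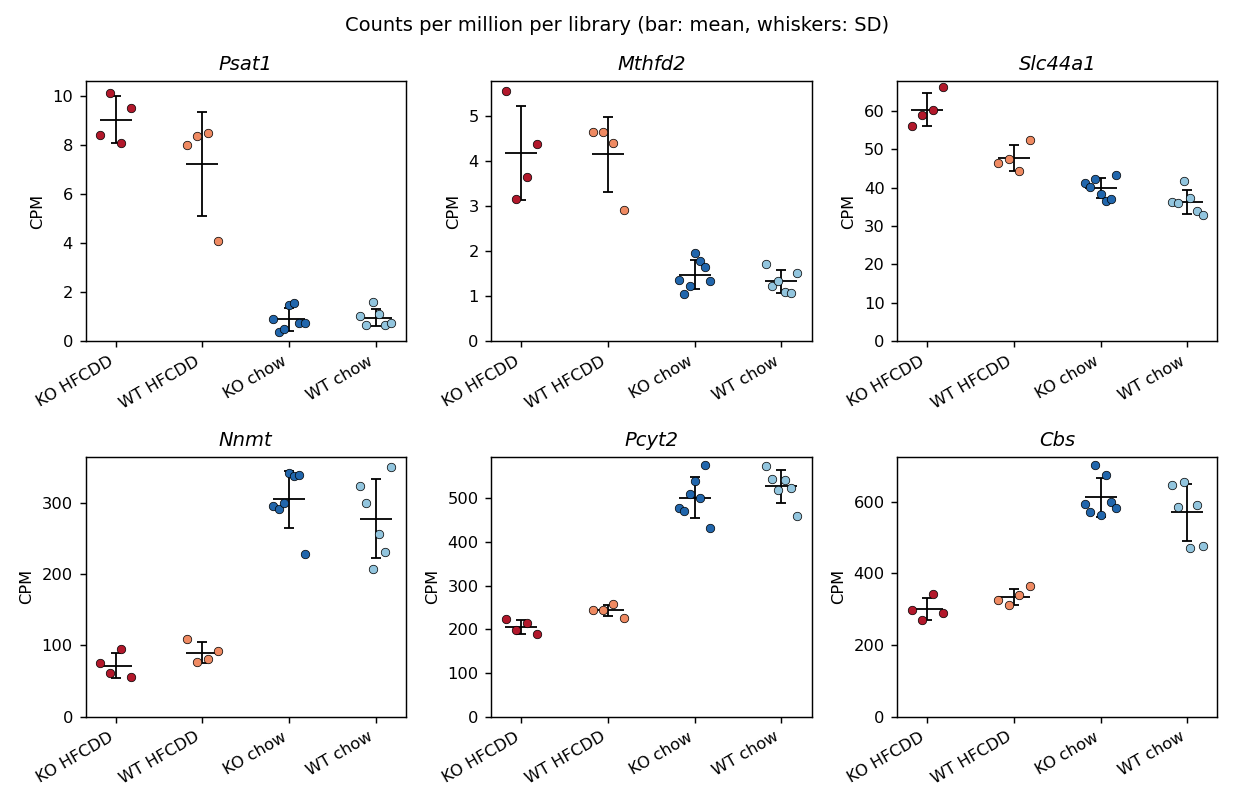
CPM of 6 diet-associated members in every library, with group means (bars) and SD (whiskers), in KO HFCDD, WT HFCDD, KO chow and WT chow livers; each vertical axis starts at 0. Psat1, Mthfd2 and Slc44a1 are higher and Nnmt, Pcyt2 and Cbs lower in every HFCDD library than in any chow library of the same genotype.

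Of the 4 members of choline oxidation, 0 were called in KO livers and 2 in WT livers, beside 69.7% and 62.5% of all tested genes. In KO livers this was the smallest share among the roles, and in WT livers it equalled that of transsulfuration (50%). In WT livers Chdh, which starts the oxidation of choline, was at -0.30 ± 0.12 (edgeR adjusted p = 0.037). Sardh, which removes a methyl group from sarcosine, was at 0.42 ± 0.18 there (edgeR adjusted p = 0.043). The Chdh call was lost without any 1 of KO chow replicates 2, 3 and 6, WT HFCDD replicates 2, 3 and 4 or WT chow replicates 1, 3, 4 and 5 (0.053 to 0.18), and with RLE (0.052) or upper-quartile scaling (0.1), no low-count filter (0.082), the WT libraries alone (0.07), or without KO chow replicates 1 and 7 and WT chow replicates 3 and 5 (0.24). The Sardh call was lost without any 1 of KO chow replicates 4 and 5, WT HFCDD replicates 1 to 4 or WT chow replicates 1 and 4 (0.051 to 0.094), without KO chow replicates 1 and 7 together (0.051), with the filter of 1 CPM (0.052) and with no low-count filter (0.064). In KO livers Chdh was at -0.20 ± 0.12 and Sardh at 0.36 ± 0.17 and were not called. Sardh passed there without any 1 of KO HFCDD replicate 2, KO chow replicate 2 or WT chow replicates 1, 4 and 5 (0.0045 to 0.047), in DESeq2 (0.046), with upper-quartile scaling (0.028) and with the KO libraries alone (0.044). Aldh7a1, which oxidises betaine aldehyde, and Dmgdh, which demethylates dimethylglycine, lay between -0.10 and 0.12 and were not called; Dmgdh passed in WT livers at 0.045 without WT chow replicate 5.

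Deletion of Mboat7 in hepatocytes went with few changes among the members. On chow 2 of 37 were called, Bhmt2 and Shmt2, both lower in KO livers, which is 5.41% of the members, beside 2.17% of all tested genes (0.561% higher and 1.61% lower). Of the members, 0 had libraries that did not overlap between genotypes, beside 0.657% of all tested genes (0.236% above and 0.421% below). Bhmt2, a homocysteine methyltransferase that uses S-methylmethionine, had 136, 161 and 188 CPM (lowest, median, highest) in KO chow livers, against 182, 228 and 289 CPM in WT chow livers. The groups met only between KO chow replicate 2 and WT chow replicate 3, and the change was -0.52 ± 0.10 (SE; edgeR adjusted p = 0.014). The call was kept with any 1 of the 21 libraries left out and lost when only the chow libraries were fitted (0.071). Shmt2 had 109.6, 137 and 165 CPM in KO chow livers, against 149.9, 172 and 194 CPM in WT chow livers, and changed by -0.32 ± 0.08 (0.039). That call was lost in limma-voom (0.093), in a fit of the chow libraries alone (0.12), without KO chow replicates 1 and 7 (0.11), without these and WT chow replicates 3 and 5 (0.21), and without any 1 of KO HFCDD replicate 1, WT HFCDD replicate 2, KO chow replicates 1, 3, 4 and 6 or WT chow replicates 2, 4, 5 and 6 (0.05 to 0.11). Exons of Shmt2 overlap Ndufa4l2 on the other strand by 32 bases.

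The neighbours of Bhmt2 on chromosome 13 were read beside it. Bhmt (chr13:93616675-93637961, minus strand), which remethylates homocysteine with betaine, lies 17758 bases from Bhmt2 (chr13:93655720-93674302, minus strand), and Dmgdh (chr13:93674433-93752833, plus strand), which takes the dimethylglycine that Bhmt makes, starts 130 bases from Bhmt2 on the other strand (GRCm38, GENCODE M21). The bases between the starts of Bhmt2 and Dmgdh, on the plus strand, held 0 matches to CCAAT and were 70.8% G or C.
Bhmt2 to Dmgdh (chr13:93674303-93674432): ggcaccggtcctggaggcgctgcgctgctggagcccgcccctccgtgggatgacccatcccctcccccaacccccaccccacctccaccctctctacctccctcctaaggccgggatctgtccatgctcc
In KO chow livers Bhmt had 642, 711 and 1356 CPM (lowest, median, highest), against 697, 1589.9 and 2469 CPM in WT chow livers, whose libraries split widely into 697, 923 and 1054 CPM in replicates 1, 3 and 4 and 2126, 2361 and 2469 CPM in replicates 2, 5 and 6. The change was -0.87 ± 0.27 and did not pass (SE; edgeR adjusted p = 0.099), but it passed in DESeq2 (0.036) and without WT chow replicate 1 (0.031) or 3 (0.045). Dmgdh was at -0.14 ± 0.10 on chow and -0.32 ± 0.13 on HFCDD, not called on either (0.49 and 0.4). Bhmt and Bhmt2 are close paralogs, and how shared reads were counted is not given in the sources used here. Mat1a, also variable among WT chow livers, was at -0.49 ± 0.16 on chow (0.11; 0.048 without WT chow replicate 1). On the log2 scale the median SD of the members within WT chow livers was 0.24, beside 0.20 over all tested genes.

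**Figure D4:**
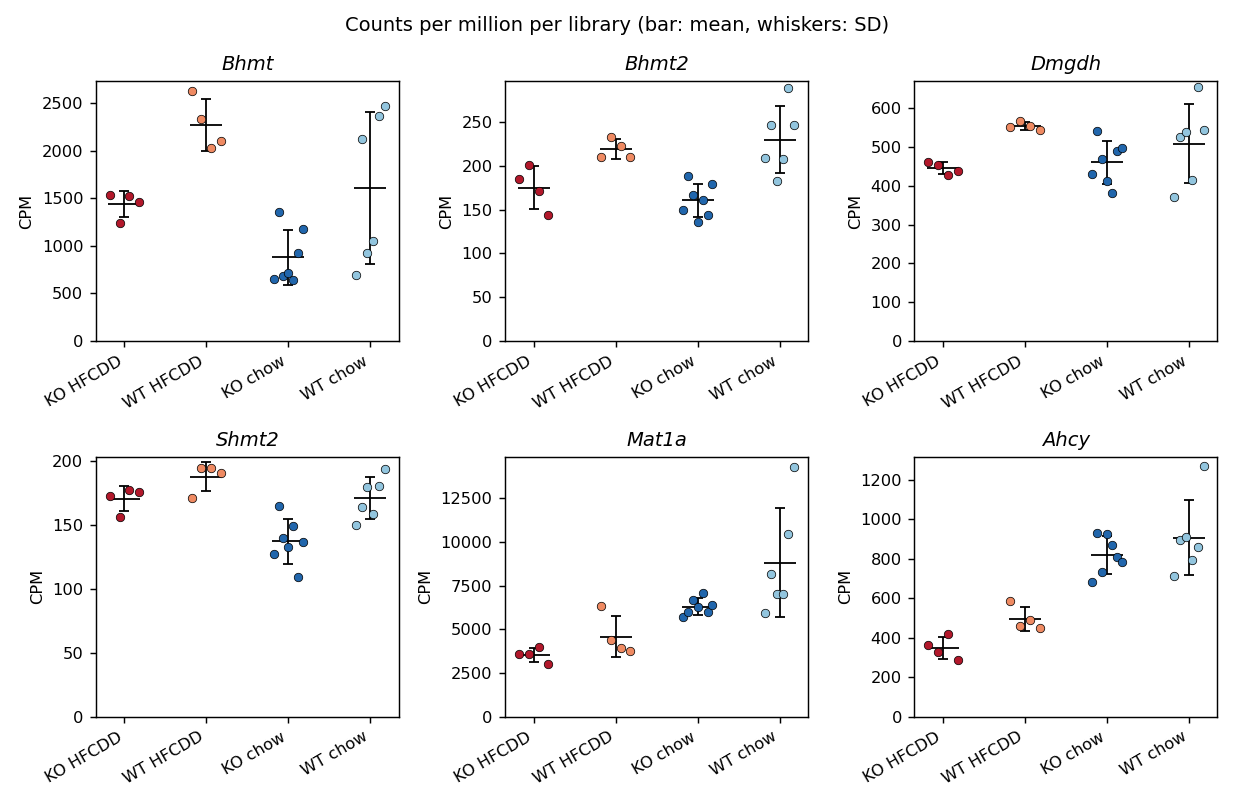
CPM of 6 members in every library, with group means (bars) and SD (whiskers), in KO HFCDD, WT HFCDD, KO chow and WT chow livers; each vertical axis starts at 0. Bhmt ranges from 697 to 2469 CPM among WT chow livers, and Bhmt, Bhmt2, Dmgdh and Ahcy are lower in every KO HFCDD library than in any WT HFCDD library.

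On HFCDD 0 of 37 members were called between KO and WT livers in edgeR, beside 0.319% of all tested genes (0.223% higher and 0.0957% lower). At an unadjusted p under 0.05 there were 9 of 37 members, beside 1562 of all 15677 tested genes. DESeq2 called 1 member and limma-voom 2. All 4 KO libraries nevertheless lay outside the range of all 4 WT libraries for 9 members (24.3%), beside 8.62% of all tested genes (4.96% above and 3.66% below). Slc44a1 was above, and Ahcy, Bhmt, Bhmt2, Aldh7a1, Dmgdh, Sardh, Pcyt2 and Chpt1 were below. Slc44a1 had 56.1, 59.0, 60.3 and 66.2 CPM in KO HFCDD livers, against 46.6, 47.6, 44.3 and 52.4 CPM in WT HFCDD livers. Its log2 difference was 0.34 ± 0.08 (SE; edgeR adjusted p = 0.086, DESeq2 0.013, limma-voom 0.021), and it passed in edgeR without KO chow replicates 1 and 7 and WT chow replicates 3 and 5 (0.041). Bhmt had 1529.8, 1239, 1522 and 1459 CPM in KO HFCDD livers, against 2632, 2334, 2027 and 2105 CPM in WT HFCDD livers. The groups were separate, at -0.66 ± 0.34 (edgeR adjusted p = 0.55, and 0.0081 when only HFCDD libraries were fitted). With HFCDD libraries alone the log2 difference of Bhmt was -0.67. On the log2 scale its SD was 0.143 in KO HFCDD and 0.169 in WT HFCDD livers. In KO chow and WT chow livers that SD was 0.441 and 0.792, and the fit of all 4 groups shares 1 estimate of the spread. The part of the chow spread in the difference between these fits was not tested. Ahcy was at -0.51 ± 0.15 (0.16; 0.041 in limma-voom and 0.046 with HFCDD libraries alone), Chpt1 at -0.34 ± 0.10 (0.16), Pcyt2 at -0.24 ± 0.09 (0.35) and Bhmt2 at -0.32 ± 0.13 (0.37). Dmgdh had 459.9, 454, 427 and 438 CPM in KO HFCDD livers, against 552, 566, 555 and 543 CPM in WT HFCDD livers, and among the settings run it passed with HFCDD libraries alone (0.043).

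The summed CPM of the 37 members was 10025 to 11796 in KO HFCDD and 13019 to 15738 in WT HFCDD livers, and 13572 to 16642 in KO chow and 14114 to 26534 in WT chow livers; Mat1a alone makes up a large part of it. Beside these results, KO HFCDD livers held more bile duct transcript, with 6 of 11 tested markers called higher. The summed CPM of that list was 582 to 834 in KO HFCDD against 220 to 260 in WT HFCDD livers, with no marker at 0. Of 12 markers of pericentral hepatocytes, 0 were called between KO and WT on HFCDD (6 had an unadjusted p under 0.05 in edgeR, beside 1562 of 15677 genes). Of these 12, 0 had a positive log2 difference (median -0.38). For 6 of the 12 every KO library lay below every WT library, beside 3.66% of all tested genes. The summed CPM of the 12 was 8235 to 9644 in KO HFCDD and 10501 to 12185 in WT HFCDD livers. Of 11 periportal markers, 1 was called, higher in KO, beside 0.319% of all tested genes, and 3 had an unadjusted p under 0.05. The 1 called gene is also among the 6 called bile duct markers, so it is not a separate result. The periportal sum was 78060 to 84804 CPM in KO HFCDD and 78116 to 91623 in WT HFCDD livers. Of the 14 hepatocyte markers, 0 were called and 2 had an unadjusted p under 0.05. Stellate and fibroblast markers (0 of 13 called) summed to 1629 to 1877 CPM in KO HFCDD against 1255 to 1539.5 in WT HFCDD livers. Endothelial markers (0 of 10 called) summed to 441 to 461 CPM in KO HFCDD against 476 to 539 in WT HFCDD livers. Macrophage sums overlapped, at 2824 to 3458 CPM in KO HFCDD and 2876 to 3393 in WT HFCDD livers. The part of cell makeup in the lower KO values was not tested.

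**Figure D5:**
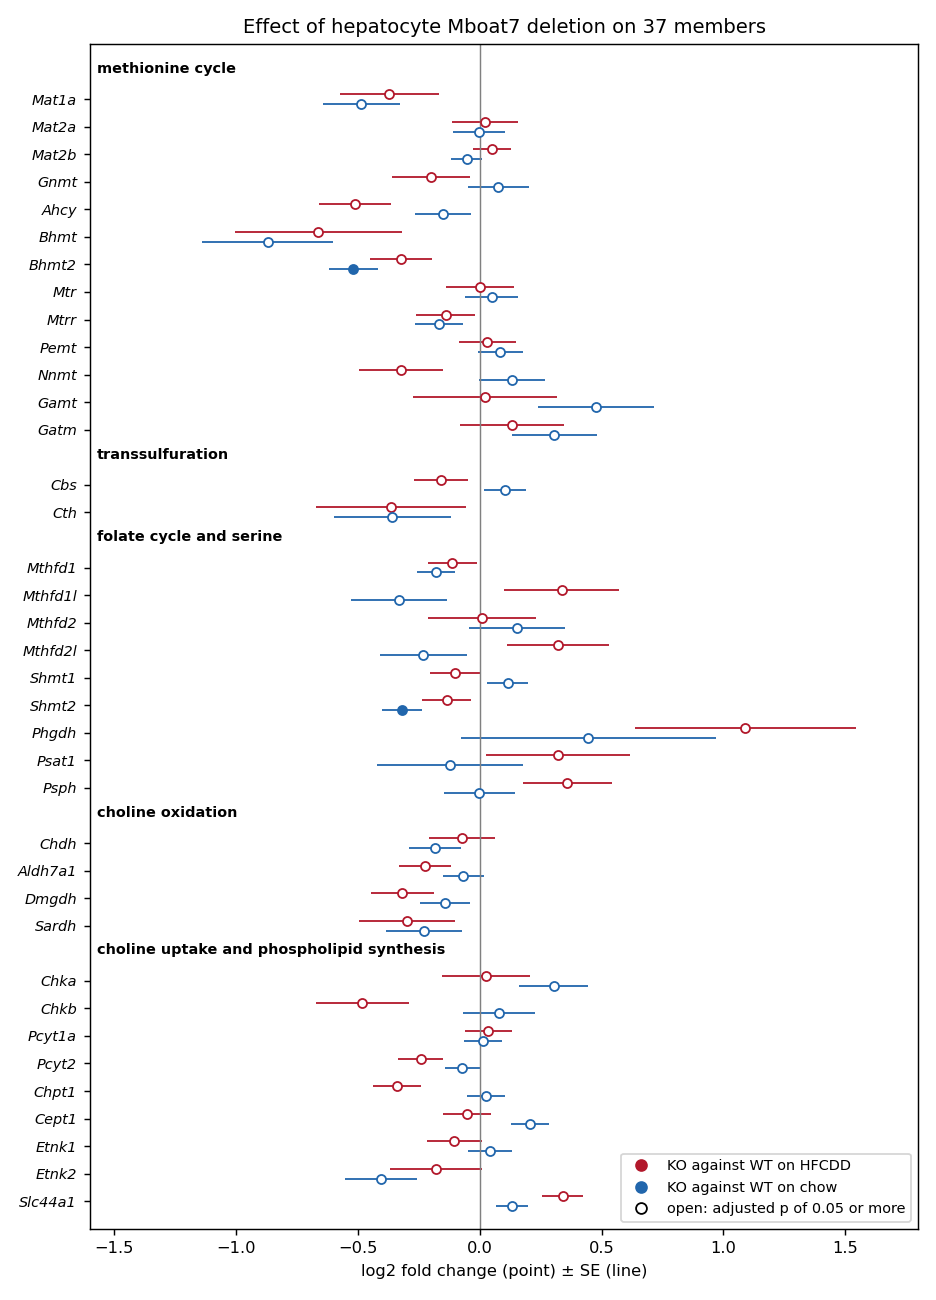
Log2 fold change (point) and SE (line) of KO against WT on HFCDD (red) and on chow (blue) for the 37 genes by role; filled points have an adjusted p under 0.05. Bhmt2 and Shmt2 on chow are the filled points, at -0.52 and -0.32, and Phgdh on HFCDD lies farthest right at 1.09 with an SE of 0.45.

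Whether the genotype difference itself differed between diets was tested as an interaction. None of the 37 members passed (0 called in edgeR, DESeq2 and limma-voom), and 0 of all tested genes passed in edgeR, 97 in DESeq2 and 10 in limma-voom. At an unadjusted p under 0.05 there were 4 members, Nnmt (-0.45 ± 0.22), Mthfd1l (0.67 ± 0.31), Chkb (-0.56 ± 0.24) and Chpt1 (-0.37 ± 0.12), and 1581 of all tested genes.

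Other genes of the same pathways were read from lists drawn up beside the members. Their counts stand beside the 69.7% of all tested genes called with diet in KO livers (33.7% higher and 36% lower) and the 62.5% in WT livers (29% and 33.6%), and are descriptions of the lists, with nothing shown to be particular to them. Of 20 further folate genes, 8 rose and 6 fell on HFCDD in KO livers and 5 rose and 6 fell in WT livers. Of 9 tested genes that break down serine and glycine, 2 rose and 4 fell in KO and 3 rose and 5 fell in WT livers; serine dehydratase Sds was at -1.10 ± 0.15 and -1.17 ± 0.15 (SE; edgeR adjusted p = 5.9e-07 and 5.4e-07). Of 14 genes of cysteine, taurine and glutathione metabolism, 3 rose and 5 fell in KO and 4 rose and 3 fell in WT livers. Csad, the taurine-forming decarboxylase, averaged 61.0 CPM in KO HFCDD against 471 CPM in KO chow livers and 55.5 CPM in WT HFCDD against 308 CPM in WT chow livers (-2.95 ± 0.33 and -2.47 ± 0.33; 2.3e-07 and 2.7e-06).

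Of 15 tested methyltransferases outside the members, 6 rose and 6 fell in KO and 6 rose and 5 fell in WT livers on HFCDD, among them the histamine methyltransferase Hnmt at 1.84 ± 0.17 and 1.91 ± 0.18 (edgeR adjusted p = 6.9e-09 and 1.3e-08) and the DNA methyltransferase Dnmt3a at 1.10 ± 0.12 and 0.94 ± 0.13 (3.3e-08 and 9.9e-07). Of 14 genes of methionine salvage and polyamines, 5 rose and 2 fell in KO and 3 rose and 4 fell in WT livers. Of 29 further phospholipid enzymes and choline carriers, 13 rose and 7 fell in KO and 10 rose and 8 fell in WT livers, including Slc44a3, a relative of Slc44a1, at 2.03 ± 0.14 and 1.63 ± 0.15 (1.3e-11 and 2.7e-09) and the lysophosphatidylcholine acyltransferase Lpcat2 at 2.46 ± 0.16 and 2.42 ± 0.17 (5.3e-12 and 4e-11). Of 22 genes known as ATF4 targets in other settings, 8 rose and 9 fell in KO and 8 rose and 7 fell in WT livers, so members of that list were called in both directions. Asparagine synthetase Asns rose by 4.04 ± 0.31 and 2.64 ± 0.33 (7.1e-11 and 2.8e-07), and Atf5 fell by 1.55 and 1.31 (-1.55 ± 0.14 and -1.31 ± 0.15; 1.9e-09 and 5.3e-08). The Atf4 transcript itself was at 72.5 to 85.5 CPM in KO HFCDD against 94.2 to 122 CPM in KO chow livers. In WT livers it was at 79.1 to 102.7 CPM on HFCDD against 86.1 to 133 CPM on chow. Apart from the added fold threshold, 30 of 30 alternative fits called it with diet in KO livers and 14 of 30 in WT livers. ATF4 activity was not tested. Between KO and WT on HFCDD, 0 genes of these 7 lists were called in edgeR, and 0 to 7 genes a list had an unadjusted p under 0.05. On chow 4 were called, beside 2.17% of all tested genes, and all were lower in KO livers: the folate enzyme Ftcd (-0.54 ± 0.13), the polyamine regulator Azin1 (-0.44 ± 0.10), the glyoxylate reductase Grhpr (-0.44 ± 0.10) and the lysophospholipase Pnpla7 (-0.63 ± 0.12), with adjusted p of 0.032, 0.025, 0.032 and 0.014. All 4 calls were lost in a fit of the chow libraries alone (0.098, 0.093, 0.095 and 0.074), and the Pnpla7 call was kept in the other 29 fits. Those of Ftcd, Azin1 and Grhpr were also lost in limma-voom (0.063, 0.055 and 0.072), without KO chow replicates 1 and 7 (0.085, 0.05 and 0.086) and without these and WT chow replicates 3 and 5 (0.1, 0.083 and 0.071). With 1 library left out, the Ftcd call was lost without KO chow replicate 1, 3, 4 or 6 or WT chow replicate 2, 5 or 6 (0.051 to 0.095). The Azin1 call was lost without KO chow replicate 4 or 6 or WT chow replicate 5 or 6 (0.06 to 0.083), and the Grhpr call without KO chow replicate 1, 4 or 6 or WT chow replicate 4, 5 or 6 (0.067 to 0.095).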

How the data were processed

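Whole-liver RNA was sequenced in 21 libraries, and the authors deposited 1 file of raw read counts per gene symbol for each, with no normalization. Per the submitters' processing notes the build was GRCm38, and the tools named, without roles, are featureCounts 1.6.1, STAR 2.6.1d and CASAVA 2.17. The annotation release and strand setting are not given in the sources used here. All 55418 symbols matched GENCODE M21, which gave positions and exon lengths. For 17 of the 37 members, exons overlap a gene of the opposite strand. The longest overlaps are in Cept1 (776 bases), Pcyt1a (674), Chpt1 (660), Chdh (589) and Mat2a (508), and Slc44a1 has 310 bases. Unless counting used strand, which is not stated, the reads of all 17 may be mixed. Within groups, 0 pairs of libraries held identical counts.

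Counts were tested with edgeR 4.0.16 in R 4.3.3: genes were filtered by filterByExpr with the 4 groups (15677 tested), scaled by TMM and fitted in 1 robust quasi-likelihood model of 4 group means, without covariates. There were 5 contrasts: KO against WT on either diet, HFCDD against chow within KO and within WT, and the interaction. They were tested two-sided by F tests with Benjamini-Hochberg adjustment over all genes and called under 0.05. SE is the absolute log2 fold change over the square root of F. CPM uses the TMM-scaled total of tested genes. Counts of members are descriptions beside the share of all genes called, and no test was run over the list.

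The alternatives were DESeq2 1.42.0, limma-voom (limma 3.58.1) with sample weights, scaling by RLE or by the upper quartile, testing without a low-count filter, a filter of 1 CPM in at least 4 libraries, an added absolute log2 fold change of 1, the compared groups only, each library left out in turn, and the libraries with gland or muscle transcripts left out. The edgeR procedure was tested on simulated data. Promoters came from RefSeq (GRCm38.p6) for 32 members. The members, gene lists and tests were chosen with earlier results of these data known. Named were called members of the KO contrasts, the called members with the 8 largest and 8 smallest changes per diet contrast, 11 well-known enzymes, and up to 4 called genes per further list by p. Atf4 was added to these, and other members are given as values. Some genes of the further lists are not reported here. Each library is from a differently numbered animal, so the p-values rest on the spread between animals within groups.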

Additional observations from a re-analysis of the deposited data

Results flagged for a closer look

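In 160 groups of values (37 members, Mboat7 and 2 ratios between members, in 4 groups), 6 had a highest or lowest library separated from the rest by a gap large against the group's range (Dixon's 95% critical value); chance flags about 1 in 20 groups. Ahcy stood at 1266.8 CPM in WT chow replicate 6, where the other WT chow livers had 712 to 912 CPM. WT HFCDD replicate 4 was low for both Psat1 (4.053 CPM, where the others had 7.99 to 8.47) and Mthfd2 (2.9182 CPM, where the others had 4.40 to 4.66). Mthfd2l was at 3.2171 CPM in KO HFCDD replicate 1, where the others had 4.19 to 4.30 CPM. Phgdh was at 0.50546 CPM, or 12 counts, in KO chow replicate 1, where the others had 0.0496 to 0.238 CPM. Psph was at 3.4751 CPM in KO chow replicate 2, where the others had 4.97 to 6.07 CPM. The diet calls of Psat1, Mthfd2, Ahcy, Mthfd2l and Phgdh were kept with any 1 of the 21 libraries left out.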

How the results depend on the processing

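Of 185 member results, 0 reversed under any alternative. Of the 55 called, 45 were kept with any 1 of 21 libraries left out, 44 under the 9 other settings apart from the added fold threshold, and 42 under all of these; of 130 uncalled, 11 passed somewhere, and the cause was not tested. With 1 library left out, members called ran from 1 to 4 for KO against WT on chow, 0 to 0 on HFCDD, 24 to 28 and 22 to 26 for the diet in KO and WT livers, and 0 to 0 for the difference; genes called ran from 49 (without WT chow replicate 5) to 611 (without WT chow replicate 3), 1 (without WT HFCDD replicate 2) to 75 (without KO chow replicate 1), 10409 to 11057, 9246 to 9896 and 0 to 8 (without KO chow replicate 1). An added absolute log2 fold change of 1 left 0 members and 44 genes for KO on chow, 11 and 5180 for the diet in KO, and 7 and 4409 in WT livers, since it asks for more. For KO on chow (2 members, 340 genes), DESeq2 called 705 genes, limma-voom 1 and 113, the chow libraries alone 0 and 2, the fit without KO chow replicates 1 and 7 gave 1 and 144, and without these and WT chow replicates 3 and 5, 1 and 189. For KO on HFCDD (0 members, 50 genes), DESeq2 called 1 and 193, limma-voom 2 and 320, RLE 32 genes, upper-quartile 28, no filter 28, and HFCDD libraries alone 3 and 296. The fit without KO chow replicates 1 and 7 called 141 genes, and that without these and WT chow replicates 3 and 5 called 1 and 175. For the difference (0 genes), these last 2 fits gave 84 and 62, DESeq2 97, limma-voom 10 and no filter 5. Phgdh was not tested under the filter of 1 CPM. Scaling moved the median of all genes by at most 0.08 (log2). No paired analysis was possible because each animal is numbered once and groups share no number. At 1 to 40 counts per library, Phgdh is limited by depth.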
